A study of Mus musculus with 16 samples.

Results

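The expression of 10 genes of the endocardial cushion and valve mesenchyme was followed in embryonic mouse hearts with and without mesodermal *Chd7*. The genes were *Has2*, *Vcan*, *Hapln1*, *Postn*, *Sox9*, *Twist1*, *Msx1*, *Msx2*, *Snai2* and *Scx*. They were taken by name, and each had exactly 1 probe set that named this gene alone, so 10 of the 19937 genes measured in this way are described. None of them was measured by a probe set shared with another gene, and no filter on low values was applied, so every gene entered every test.

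Single whole hearts of C57BL/6 embryos were hybridised to Affymetrix Mouse Gene 1.0 ST arrays, with 4 *Chd7*fl/fl;*Mesp1-Cre* and 4 control hearts at E11.5 and at E13.5 (embryonic day), 16 arrays in all. The exact genotype of the controls is unsettled. The labels call them WT and give, for all 16 samples, a cross of *Chd7*fl/fl with *Chd7*fl/+;*Mesp1-Cre* mice, in which every embryo would inherit a floxed *Chd7* allele, whereas the study's text gives the controls as *Chd7*+/+;*Mesp1-Cre*. *Mesp1-Cre* recombines in the anterior mesoderm, the source of the myocardium and endocardium, and not in the neural crest, which also sends cells into the outflow tract cushions. The labels give no sex.

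Endocardial cushions are swellings of extracellular matrix between the endocardium and the myocardium of the atrioventricular canal and outflow tract. Signals from the myocardium, among them BMP and TGF-beta ligands, cause endocardial cells to lose their contacts, invade this matrix and become mesenchyme, and the cushions are later remodelled into valve leaflets and parts of the septa. Hyaluronan and the proteoglycans bound to it make up the early cushion matrix, whereas collagens, elastin and periostin mark the maturing valve. Since hearts were not dissected further, each value is an average over myocardium, endocardium, epicardium, cushions and blood, and fewer cushion cells or less RNA per cell cannot be told apart.

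As a check of the labels, the brightest of the 30 probe sets that name *Chd7* alone lay between 9.16 and 9.73 on the log2 scale in mutant hearts at E11.5, against 10.64 to 10.89 in controls. At E13.5 it lay between 8.88 and 9.07 in mutant hearts and between 9.83 and 10.30 in controls, so the genotypes did not overlap at either stage. The summed level of 9 myocardial markers, taken on the linear scale and given as log2, was 16.11 to 16.48 over the 16 hearts. The SD of all values of an array was 2.18 to 2.26 at E11.5 and 2.38 to 2.42 at E13.5, a difference between the stages that touches every comparison of E13.5 with E11.5. Mutant E11.5 replicates 3 and 4 and control E13.5 replicate 1 stood apart from their groups in earlier work on these arrays. Counts and directions of the 10 genes that change without these hearts are given with and without them. Results of other gene lists and correlations between genes were not recomputed without them.

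Levels below are the deposited log2 values. A log2 FC is mutant minus control (or E13.5 minus E11.5) from a fit of all 16 arrays in limma, with its standard error (SE) and a p value adjusted over the 34760 probe sets by the Benjamini–Hochberg procedure. A gene was called down- or upregulated at an adjusted p under 0.05 with a log2 FC over 0.5 in size. Absolute levels of different genes are not compared, since each probe set has its own brightness.

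Most of the 10 genes had lower means in mutant hearts. At E11.5 the sign was lower for 8 of 10 genes, with a median log2 FC of −0.33, while 48.7% of all probe sets were lower and their median was 0.01. At E13.5 all 10 were lower, with a median of −0.20 beside 0.00 over all probe sets, of which 48.6% were lower. Lower means at both stages were found for 8 of 10 genes and for 26% of all probe sets. The sizes were moderate, with extremes of −0.69 and 0.09 (log2 FC) at E11.5 and of −0.74 and −0.05 at E13.5. The 10 genes were measured in the same hearts, so they are not 10 independent observations.

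No gene of the 10 was called at either stage alone. At E11.5 the rule called 0.196% of all probe sets lower and 0.0777% higher, and at E13.5 it called 0.0288% lower and 0.00863% higher. At an unadjusted p under 0.05, limma found 5 of the 10 genes lower at E11.5 (4.83% of all probe sets) and 4 lower at E13.5 (1.78%), and none higher (4.66% and 1.65% of all probe sets). The hearts of the genotypes did not overlap, with every mutant heart below every control heart, for 4 genes at E11.5 and 3 at E13.5, whereas 1.74% and 1.85% of all probe sets were in this position. The 4 genes at E11.5 were *Has2*, *Hapln1*, *Sox9* and *Snai2*, and the 3 genes at E13.5 were *Hapln1*, *Postn* and *Msx1*. *Hapln1* was therefore in this position at both stages, as were 0.331% of all probe sets. Without control E11.5 replicate 4, the count at E11.5 was 7 instead of 4, and it was also 7 when the 3 hearts named above were left out. Leaving out hearts cannot lower such a count, and the share of all probe sets was not recomputed without these hearts, so the 7 has no background. When the genotype difference was averaged over both stages, 1 gene, *Hapln1*, was called lower (0.282% of all probe sets), and 7 of the 10 were lower at an unadjusted p under 0.05 (3.79%).

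**Figure D1:**
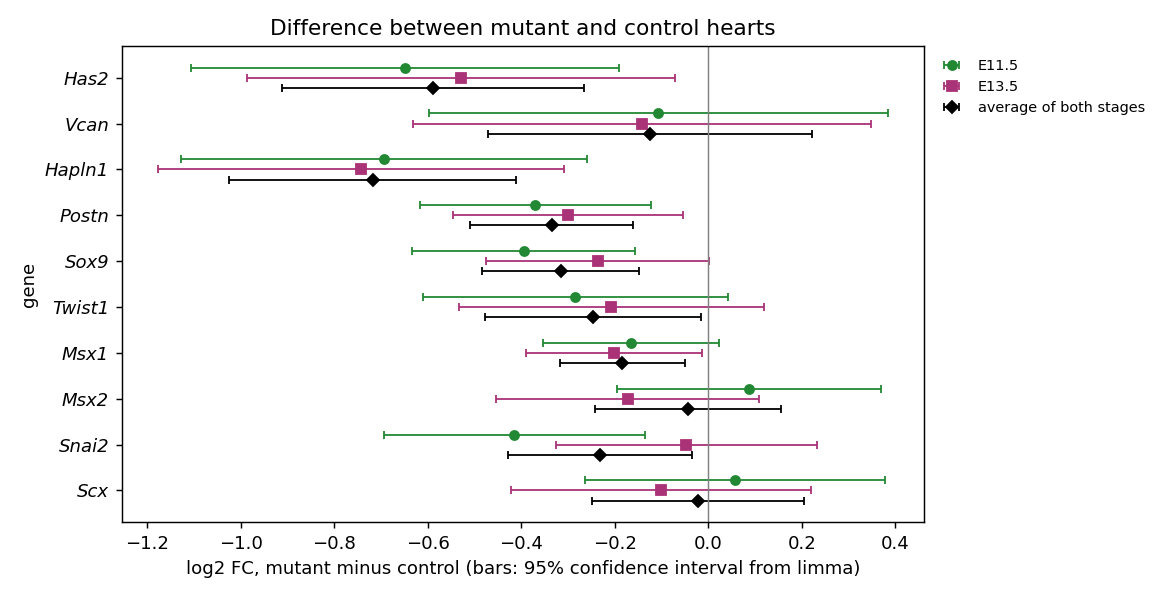
Log2 FC of mutant minus control hearts (horizontal axis) for the 10 genes (vertical axis) at E11.5 (green circles), at E13.5 (purple squares) and averaged over both stages (black diamonds), with 95% confidence intervals from limma that are not adjusted for the number of probe sets. *Hapln1* and *Has2* lie farthest to the left, between −0.74 and −0.53, and *Vcan*, *Msx2* and *Scx* lie nearest to 0 at E11.5 and on average, whereas *Snai2* (−0.05) lies nearest to 0 at E13.5.

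*Hapln1* and *Vcan* were the neighbouring pair among these genes. *Hapln1* encodes a link protein that fastens proteoglycans to hyaluronan, and *Vcan* encodes versican, the main proteoglycan it fastens in the cushion. Both lie on chromosome 13, next to each other in the order of protein-coding genes. Sequences of the 250 bases before the transcription start were found for 6 of the 10 genes in the RefSeq promoter table for GRCm38.p6, and those of this pair are printed because the genes are neighbours and *Hapln1* alone was called lower in mutants. The *Hapln1* window is chr13:89540386-89540635 on the plus strand and the *Vcan* window is chr13:89742513-89742762 on the minus strand, each written 5′ to 3′ as the gene is read. Capitals mark a match to any of the motifs searched on both strands, which were the E-box CANNTG, its subset CAGGTG, the homeodomain core CAATTA and the SOX core AACAAT.
Hapln1: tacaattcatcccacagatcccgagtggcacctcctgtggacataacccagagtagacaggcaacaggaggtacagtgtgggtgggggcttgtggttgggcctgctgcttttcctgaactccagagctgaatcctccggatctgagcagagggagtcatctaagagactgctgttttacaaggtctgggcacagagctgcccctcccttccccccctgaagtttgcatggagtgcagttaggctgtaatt
Vcan: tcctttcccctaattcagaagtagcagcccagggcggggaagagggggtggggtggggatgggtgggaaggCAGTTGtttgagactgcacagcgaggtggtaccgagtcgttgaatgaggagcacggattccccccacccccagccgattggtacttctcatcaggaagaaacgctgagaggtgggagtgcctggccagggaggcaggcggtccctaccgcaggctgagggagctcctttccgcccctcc

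The *Vcan* window held 1 E-box and none of the other motifs, and the *Hapln1* window held none of the 4. Their GC content was 62.4% and 54.4%. Of 32851 promoter windows of the same length, 66.2% held CANNTG, 17.2% held CAGGTG, 7.17% held CAATTA and 9.42% held AACAAT. A match describes the letters of the window and says nothing about binding in these hearts.

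*Hapln1* had the largest difference of the 10 genes at each stage. At E11.5 its level was 10.84, 10.92, 10.90 and 10.91 in control replicates 1 to 4, and 9.79, 10.50, 9.82 and 10.69 in mutant replicates 1 to 4. The controls were nearly alike (10.89 ± 0.03, SD, n = 4) and the mutant hearts were split into a low and a high pair (10.20 ± 0.46, SD, n = 4), all of them below every control. At E13.5 the level was 10.48, 10.56, 10.05 and 9.94 in control replicates 1, 2, 4 and 5, and 9.76, 9.42, 9.19 and 9.68 in mutant replicates 1 to 4, again without overlap. The log2 FC was −0.69 (SE 0.20, limma adjusted p = 0.234) at E11.5 and −0.74 (SE 0.20, adjusted p = 0.572) at E13.5. With 4 hearts against 4, the exact permutation test of a single gene (two-sided) cannot go below p = 0.0286, which is the value that *Hapln1* reached at both stages.

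Averaged over both stages, *Hapln1* was downregulated, with a log2 FC of −0.72 (SE 0.14) and a limma adjusted p of 0.0393. The mutant level was 60.8% of the control level (95% confidence interval 49.2% to 75.2%). The direction held in every alternative, from −0.80 to −0.65, but the call stood close to the threshold, and the adjusted p ranged from 0.0101 to 0.114. It was lost with array weights (0.0591), with the replicate number as a block (0.114), with a covariate of Y-linked genes (0.0662) and without the 3 hearts that stand apart (0.0927). Leaving out any 1 of 12 hearts also ended it, with adjusted p values from 0.0563 to 0.101, and it was kept when any 1 of mutant E11.5 replicates 2 and 4, mutant E13.5 replicate 1 and control E13.5 replicate 5 was omitted.

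For *Vcan* no difference between genotypes was detected. Its level at E11.5 was 11.86, 12.36, 11.88 and 11.63 in the control hearts and 11.39, 12.26, 11.39 and 12.28 in the mutant hearts, so that mutant replicates 2 and 4 lay with the highest control and replicates 1 and 3 below all controls. At E13.5 it was 11.72, 11.48, 11.34 and 11.44 in controls and 11.53, 11.28, 10.91 and 11.68 in mutants, and the groups overlapped. The averaged log2 FC was −0.12 (SE 0.16, limma adjusted p = 0.925), with a 95% confidence interval from −0.47 to 0.22, so that differences of some size in either direction are within the error. Whether the differences of *Hapln1* and *Vcan* were unequal was not tested. The other measured protein-coding neighbours of the pair, *Edil3*, *Xrcc4* and *Tmem167*, had averaged log2 FC of −0.38, −0.06 and −0.14, with adjusted p values of 0.519, 0.956 and 0.713.

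*Has2* encodes the main hyaluronan synthase of the cushion, whose loss in mice leaves the heart without cushions. At E11.5 its level was 9.61, 9.60, 9.43 and 9.26 in the control hearts and 8.46, 8.99, 8.85 and 8.999 in the mutant hearts, and the groups did not overlap. At E13.5 it was 9.31, 9.17, 8.65 and 8.53 in controls and 8.64, 8.74, 7.78 and 8.37 in mutants. Here 2 control hearts fell to the range of the mutants, and mutant replicate 3 was the lowest heart of all. The log2 FC was −0.65 (SE 0.21, limma adjusted p = 0.313) at E11.5 and −0.53 (SE 0.21, adjusted p = 1.00) at E13.5. Averaged over both stages it was −0.59 (SE 0.15, adjusted p = 0.164), a level of 66.5% of control (95% confidence interval 53.1% to 83.2%), which did not pass the adjustment over all probe sets.

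*Postn* encodes periostin, a matrix protein of the maturing valve mesenchyme and of fibroblasts. Its level at E11.5 was 11.65, 11.65, 11.72 and 11.49 in control hearts and 11.28, 11.03, 11.59 and 11.14 in mutant hearts, where mutant replicate 3 reached the range of the controls. At E13.5 it was 12.34, 12.34, 12.25 and 12.44 in controls and 12.01, 12.12, 11.87 and 12.17 in mutants, and every mutant heart was below every control. The log2 FC was −0.37 (SE 0.12, limma adjusted p = 0.274) at E11.5, −0.30 (SE 0.12, adjusted p = 1.00) at E13.5 and −0.34 (SE 0.08, adjusted p = 0.126) on average. The averaged change was below the fold threshold under all settings.

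**Figure D2:**
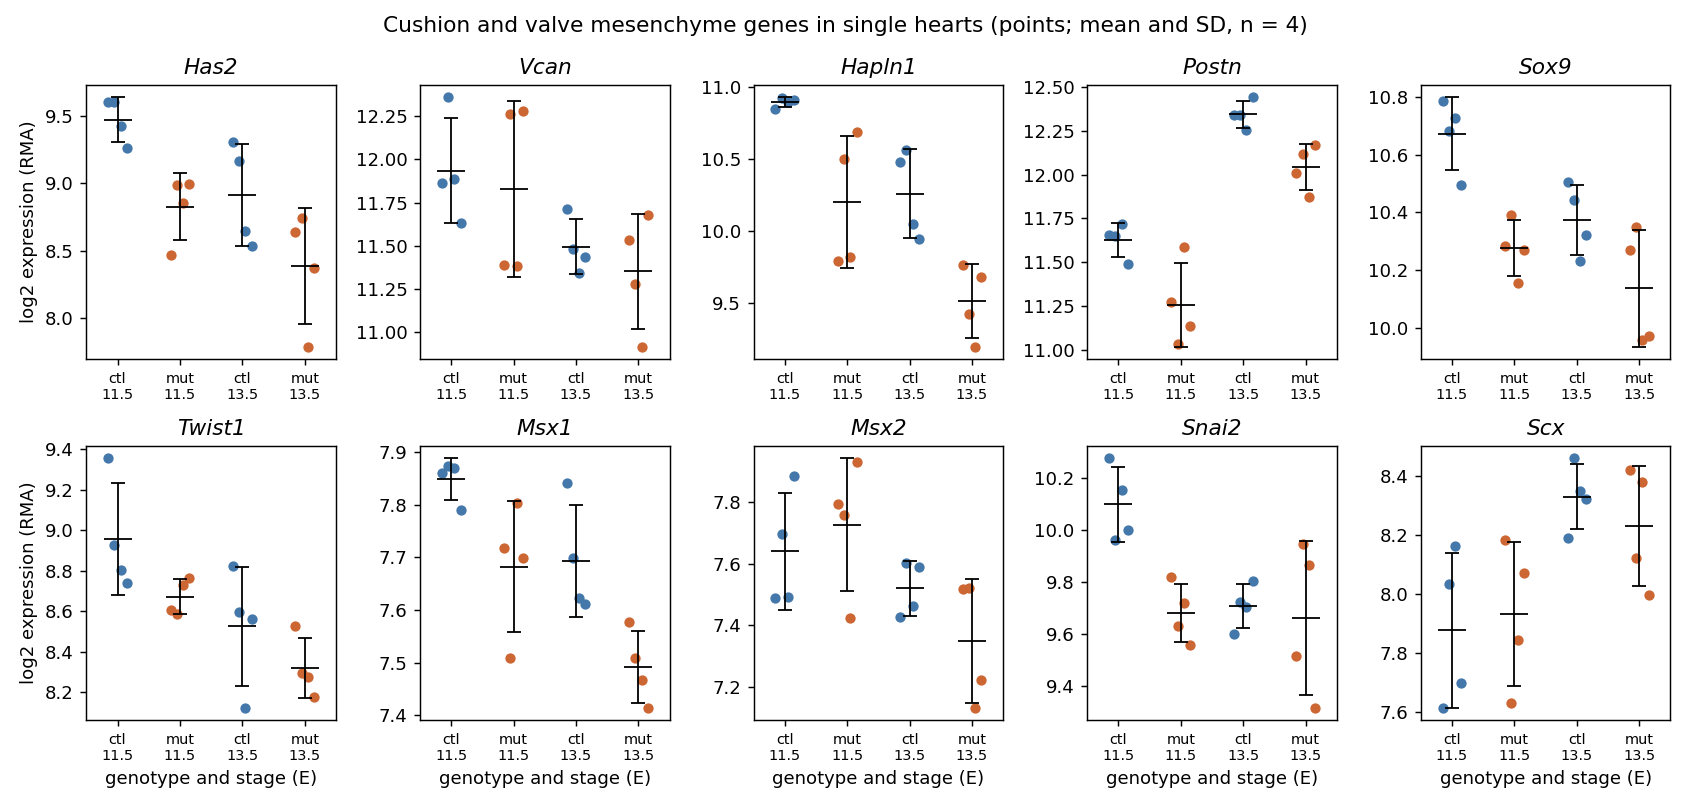
Deposited log2 expression (vertical axes, a separate scale for each gene) in single hearts of the 4 groups, control (ctl, blue) and mutant (mut, orange) at E11.5 and E13.5, with horizontal bars for the mean and SD of 4 hearts. *Hapln1* in control hearts at E11.5 lies within 10.84 to 10.92, above all mutant hearts, and *Postn* is the gene whose E13.5 hearts lie above all E11.5 hearts in both genotypes.

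Of the transcription factors, *Sox9* and *Snai2* had separate groups at E11.5. *Sox9* is needed for the expansion of cushion mesenchyme and its matrix programme. It read 10.79, 10.68, 10.73 and 10.49 in control hearts at E11.5 and 10.29, 10.39, 10.16 and 10.27 in mutant hearts, with no overlap. At E13.5 it read 10.50, 10.44, 10.23 and 10.32 in controls and 10.27, 10.35, 9.96 and 9.97 in mutants, where the groups overlapped. The log2 FC was −0.40 (SE 0.11, limma adjusted p = 0.213) at E11.5, −0.24 (SE 0.11, adjusted p = 1.00) at E13.5 and −0.32 (SE 0.08, adjusted p = 0.142) on average.

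*Snai2* encodes SLUG, a repressor of cell adhesion genes during the transition of endocardium to mesenchyme. At E11.5 the controls were at 10.27, 9.96, 10.15 and 9.999 and the mutants at 9.82, 9.63, 9.72 and 9.56, again with no overlap. By E13.5 the controls were at 9.60, 9.72, 9.71 and 9.80, and the mutants at 9.52, 9.95, 9.86 and 9.32 lay on both sides of them. The log2 FC was −0.42 (SE 0.13, limma adjusted p = 0.277) at E11.5 and −0.05 (SE 0.13, adjusted p = 1.00) at E13.5. The difference between these 2 values was 0.37 (SE 0.19), the largest in size of the 10 genes, with an unadjusted p of 0.0652 and an adjusted p of 1.00 by limma, so a change of the genotype difference with stage was not shown.

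*Msx1* and *Msx2* encode homeodomain factors that act together in atrioventricular cushion formation. *Msx1* was at 7.86, 7.87, 7.87 and 7.79 in controls and 7.72, 7.51, 7.80 and 7.70 in mutants at E11.5, with 1 mutant heart just above the lowest control. At E13.5 it was at 7.84, 7.70, 7.62 and 7.61 in controls and 7.58, 7.51, 7.47 and 7.41 in mutants, which did not overlap, although the gap was narrow. Its averaged log2 FC was −0.18 (SE 0.06), with a 95% confidence interval from −0.32 to −0.05, an unadjusted p of 0.0101 and an adjusted p of 0.412 by limma. *Msx2* overlapped between genotypes at both stages, with a log2 FC of 0.09 (SE 0.13) at E11.5, −0.17 (SE 0.13) at E13.5 and −0.04 (SE 0.09) on average. The 95% confidence intervals of *Msx2* included 0 in all 3 comparisons.

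*Twist1*, a bHLH factor of proliferating cushion mesenchyme, lay between 8.59 and 8.76 in mutant hearts at E11.5, against 8.74 to 9.36 in controls. At E13.5 the ranges were 8.18 to 8.53 and 8.12 to 8.82, so that the genotypes overlapped at both stages. The averaged log2 FC was −0.25 (SE 0.11, limma adjusted p = 0.609). *Scx*, a factor of tendons and of the fibrous part of the valves, lay between 7.63 and 8.18 in mutants and between 7.61 and 8.16 in controls at E11.5, and between 7.997 and 8.42 and between 8.19 and 8.46 at E13.5. Its averaged log2 FC was −0.02 (SE 0.11), with a 95% confidence interval from −0.25 to 0.20.

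The genotype difference did not differ detectably between the stages for any of the 10 genes. The test of that difference called 0 of 10 genes and 0% of all probe sets at an adjusted p under 0.05. At an unadjusted p under 0.05 it found 0 of the 10 genes, beside 2.14% of all probe sets lower and 2.22% higher. The 95% confidence interval for *Hapln1* ran from −0.66 to 0.56, so that sizeable differences in either direction remained within the error.

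Between E11.5 and E13.5, *Postn* was called higher and *Hapln1* lower in both genotypes in the deposited values. In control hearts the means of 8 genes were lower at E13.5 and those of *Postn* and *Scx* were higher, and the same 8 and 2 were found in mutant hearts. *Hapln1* (log2 FC −0.63, SE 0.20, limma adjusted p = 0.0211) and *Has2* (−0.56, SE 0.21, adjusted p = 0.0476) were called lower in controls, and *Postn* (0.71, SE 0.12, adjusted p = 0.000225) was called higher. *Scx* in controls was at 0.45 (SE 0.15, adjusted p = 0.0249) with no overlap of the stages, and stayed under the fold threshold. In mutant hearts *Hapln1* (−0.68, SE 0.20, adjusted p = 0.0143) was called lower and *Postn* (0.78, SE 0.12, adjusted p = 0.000103) higher. These counts, 2 lower and 1 higher in controls and 1 lower and 1 higher in mutants, stand beside 15.1% lower and 15.3% higher of all probe sets in controls and 15.4% and 15.3% in mutants, so they are near the background of a comparison in which 30.4% (controls) and 30.7% (mutants) of all probe sets were called. Hearts of the 2 stages did not overlap for 2 genes lower and 2 higher in controls (17.9% and 22.3% of all probe sets) and for 2 lower and 1 higher in mutants (16.1% and 19.9%). In controls the count lower was 7 after quantile normalisation, beside 17% of all probe sets, 7 after cyclic loess normalisation (17.1%) and 6 after scaling to a common SD (16.3%). It was also 6 without control E11.5 replicate 4 (21.8%) and 7 without control E13.5 replicate 1 (20.5%). The stage and genotype comparisons share hearts, and are therefore not independent of each other.

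How many genes were called also depended on the scaling of the arrays. After quantile normalisation of the 16 arrays, 6 genes were called lower in controls, namely *Has2* (−0.76), *Vcan* (−0.67), *Hapln1* (−0.88), *Sox9* (−0.54), *Twist1* (−0.60) and *Snai2* (−0.62), beside 12.1% of all probe sets. *Postn* then had a log2 FC of 0.49 (adjusted p = 0.00695), just under the fold threshold, so no gene was called higher, beside 12.3% of all probe sets. In mutant hearts the same setting called 4 genes lower, *Has2* (−0.62), *Vcan* (−0.69), *Hapln1* (−0.91) and *Twist1* (−0.52), and *Postn* higher (0.57, adjusted p = 0.00268). Of all probe sets, 12.2% were called lower and 12.2% higher there. Cyclic loess normalisation gave the same counts of 6 and 4 lower, beside 12.2% of all probe sets in controls and 12.3% in mutants. Every direction was the same after quantile and after cyclic loess normalisation and after scaling to a common SD, whereas centring on the array median alone turned *Snai2* in mutant hearts from −0.02 to 0.03. The call of *Has2* in controls was lost in 13 of 28 alternatives, with adjusted p values up to 0.144, among them array weights (0.0519), centring on the array median (0.0580), the replicate block (0.0959) and the omission of any 1 of 10 hearts. That of *Hapln1* in controls was lost with the replicate block (0.0545) and without control E13.5 replicate 4 (0.0619) or 5 (0.0696).

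**Figure D3:**
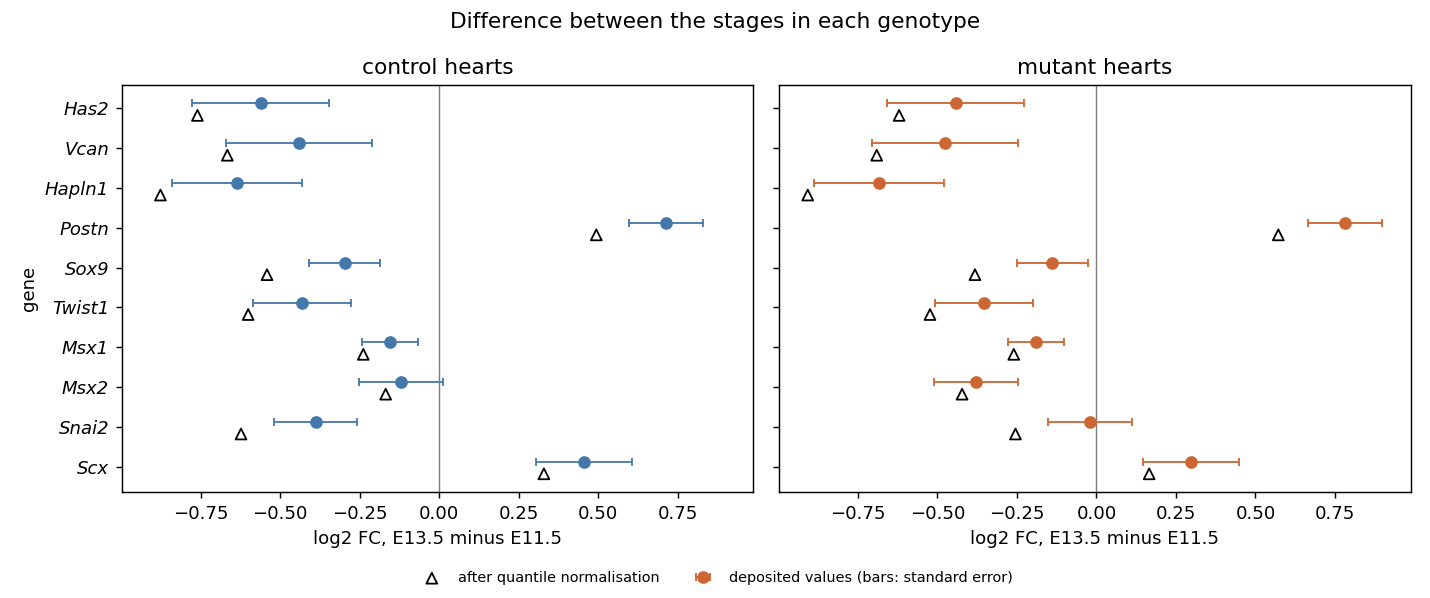
Log2 FC of E13.5 minus E11.5 (horizontal axes) for the 10 genes (vertical axis) in control (left, blue) and mutant hearts (right, orange), with bars for the standard error of the deposited values and open triangles for the value after quantile normalisation. The triangles lie to the left of the deposited values for all 10 genes in both genotypes, and *Postn* and *Scx* stay to the right of 0.

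In the deposited values, the order of the group means was the same for *Hapln1* and *Has2*. Each was highest in controls at E11.5 and lowest in mutants at E13.5. Mutant E11.5 and control E13.5 hearts lay between and did not differ beyond their spread, with means of 10.20 and 10.26 for *Hapln1* and 8.83 and 8.91 for *Has2*. *Sox9* also ran from control E11.5 (10.67) through control E13.5 (10.38) and mutant E11.5 (10.28) to mutant E13.5 (10.14), and its middle groups differed by about the size of their SD (0.12 and 0.10, n = 4 each). *Postn* had another order, from mutant E11.5 (11.26) and control E11.5 (11.63) to mutant E13.5 (12.04) and control E13.5 (12.34). For *Snai2*, control E11.5 (10.10) stood above the other 3 groups, whose means of 9.68, 9.66 and 9.71 were within their SD of each other. For *Hapln1*, *Has2*, *Sox9* and *Snai2*, the place of control E13.5 depended on the scaling of the arrays. After quantile normalisation, control E13.5 minus control E11.5 was −0.88, −0.76, −0.54 and −0.62, in this order. Mutant minus control at E11.5 went no lower than −0.86, −0.75, −0.46 and −0.47 in any alternative. Control E13.5 means of these genes therefore lay below mutant E11.5 means after quantile normalisation.

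No relation between the genes within groups passed adjustment, and the strongest was that of *Vcan* with *Hapln1*. Each heart's deviation from its group mean was compared between genes over the 16 hearts, with hearts permuted within their groups. Of the 45 relations, that of *Vcan* with *Hapln1* was strongest (Pearson r = 0.82, permutation p = 0.00286; Spearman rho = 0.86, permutation p = 0.00203), which was 0.74 without the 2 hearts farthest from the median of *Vcan*, 0.86 within E11.5 and 0.76 within E13.5. *Has2* had r of 0.74 with *Sox9*, 0.69 with *Hapln1* and 0.61 with *Vcan*, with permutation p values of 0.00655, 0.0111 and 0.00803, and *Snai2* had r of −0.63 with *Vcan* (permutation p = 0.0152) and −0.59 with *Hapln1* (permutation p = 0.0102). *Postn*, the other matrix gene, had r of −0.23 with *Vcan*, −0.39 with *Hapln1* and 0.13 with *Has2*. Over the 45 relations the lowest adjusted p was 0.0995 for Pearson's r and 0.0902 for Spearman's rho. In the mutant hearts at E11.5, replicates 2 and 4 were above the group mean of *Hapln1* by 0.30 and 0.49 and replicates 1 and 3 were below it by 0.41 and 0.38, and *Vcan* was split in the same way. All genes of a heart share 1 RNA sample and 1 array, so the quality or make-up of the sample moves with these values too.

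**Figure D4:**
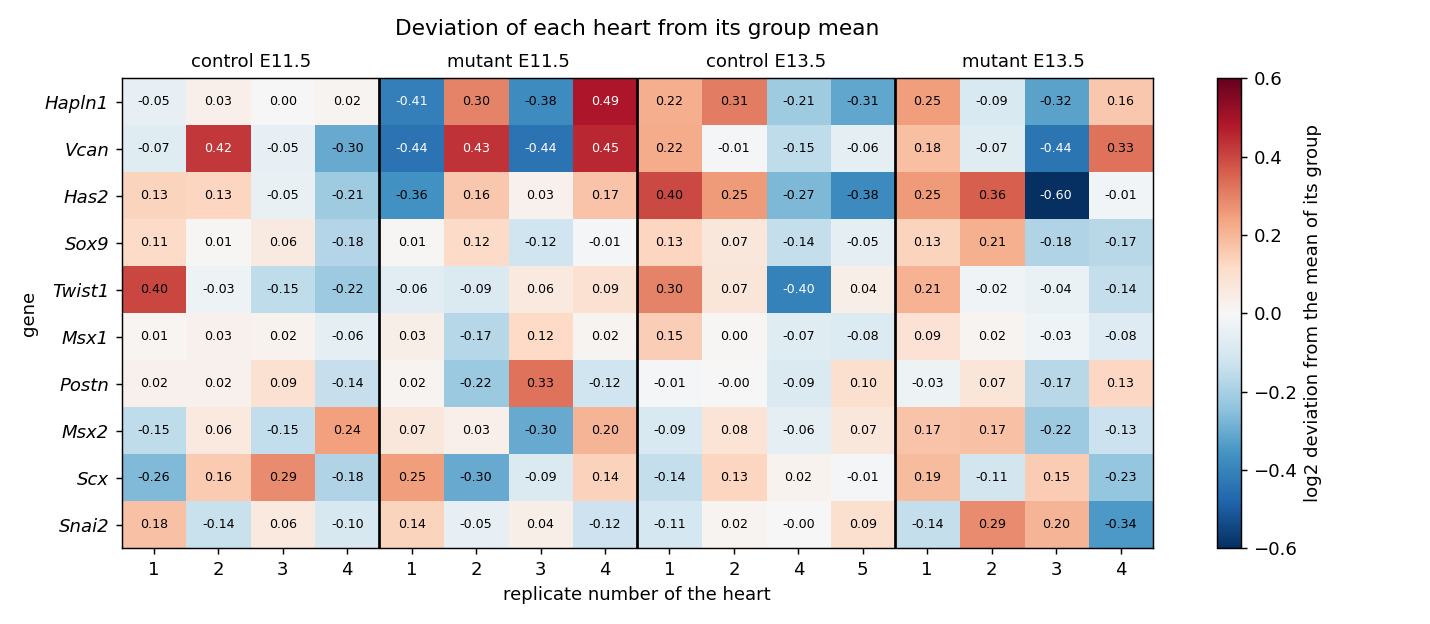
Deviation of each heart from the mean of its group (colour and number, log2 units) for the 10 genes (vertical axis) in the 16 hearts (horizontal axis, replicate numbers within the 4 groups). The rows of *Hapln1* and *Vcan* change sign together in the mutant hearts at E11.5, with replicates 2 and 4 high and replicates 1 and 3 low.

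The summed levels of the 14 other lists were compared with the 10 genes in the same way, and none of the 140 relations passed adjustment, with a lowest adjusted p of 0.0919 for Pearson's r and 0.130 for Spearman's rho. The sum of 9 markers of the endocardium and endothelium had positive correlations with *Hapln1* (r = 0.79, permutation p = 0.00197; rho = 0.73, permutation p = 0.0169) and *Vcan* (r = 0.83, permutation p = 0.00514; rho = 0.83, permutation p = 0.00776) over the 16 hearts, and a negative one with *Snai2* (r = −0.61, permutation p = 0.0212; rho = −0.69, permutation p = 0.00899). Without the 2 hearts farthest from the median of the marker sum these r were 0.71, 0.75 and −0.51. Values of similar size were found for other lists. The receptors of cushion signals had r of 0.85 with *Vcan* (permutation p = 0.00158) and −0.72 with *Snai2*, the neural crest markers 0.79 with *Sox9* (permutation p = 0.00170), the hypoxia genes 0.67 with *Hapln1* and the fibrous matrix genes −0.68 with *Has2*, while the hyaluronan and proteoglycan genes had −0.58 with *Has2* and −0.55 with *Vcan*. The endocardial sum lay between 13.78 and 14.11 in mutant and between 13.95 and 14.06 in control hearts at E11.5, which overlapped, and between 13.97 and 14.21 and between 14.25 and 14.30 at E13.5, which did not. Of the 9 markers, 8 had lower means in mutants on average over the stages (median log2 FC −0.10) and none was called, with *Tek*, *Plvap* and *Nfatc1* at −0.22, −0.26 and −0.13 (limma adjusted p = 0.145, 0.446 and 0.745). The part of endocardial content in the lower *Hapln1* of mutant hearts was not tested.

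The ligands that act on the cushions were mixed. Of 15 ligands measured, 10 had lower means in mutants over both stages (median −0.10), and at an unadjusted p under 0.05 limma found 6 lower and 3 higher (3.79% and 4.02% of all probe sets). *Inhba*, which encodes the activin beta A chain, was the only ligand called, with an averaged log2 FC of −0.79 (SE 0.16, adjusted p = 0.0455), beside 0.282% of all probe sets called lower. The call of *Inhba* stood close to the threshold and was not recomputed under the alternative settings. The other 8 ligands with an unadjusted p under 0.05 are named here after their values had been seen. The lower ones were *Bmp5*, a myocardial BMP ligand (−0.46, adjusted p = 0.0890), *Jag1*, a Notch ligand (−0.33, adjusted p = 0.138), *Wnt4* (−0.35), *Wnt9b* (−0.31) and *Tgfb1* (−0.19). The higher ones were *Tgfb3* (0.37, adjusted p = 0.365), *Bmp6* (0.25) and *Bmp2* (0.23), and at E11.5 every mutant heart lay above every control heart for *Tgfb3* (0.58, adjusted p = 0.231). The 13 receptors of these signals had a median of 0.02, 4 of them with lower means, and none was called. *Bmpr1a*, *Acvr2b* and *Egfr* had averaged log2 FC of 0.20, 0.13 and 0.21, with adjusted p values of 0.485, 0.716 and 0.751.

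Other genes of the cushion mesenchyme and its matrix gave no call between genotypes. Of 19 further mesenchymal transcription factors, 13 had lower means in mutants over both stages (median −0.04), led by *Prrx1* (−0.56, SE 0.15, limma adjusted p = 0.170), *Meox1* (−0.49, adjusted p = 0.344) and *Foxc1* (−0.23, adjusted p = 0.514). Of 20 further genes of hyaluronan and proteoglycan matrix, 16 had lower means (median −0.06), and *Adamts1*, a protease that cuts versican, was at −0.29 (SE 0.08, adjusted p = 0.211). The small proteoglycans *Lum* and *Aspn* were at −0.68 (SE 0.32) and −0.57 (SE 0.27), with adjusted p values of 0.647 and 0.648. The 21 genes of fibrous and elastic matrix had a median of 0.03 with 9 lower, and *Col1a1* was at 0.47 (SE 0.13, adjusted p = 0.219), *Tgfbi* at −0.28 (adjusted p = 0.430) and *Emilin1* at −0.14 (adjusted p = 0.731). Beside these medians, the 10 cushion genes had a median of −0.24 and all probe sets one of 0.01.

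In whole hearts, several genes of the matrix lists were called higher at E13.5, a stage at which *Hapln1*, *Vcan* and *Has2* had lower means. In control hearts and in the deposited values, 7 of the 20 hyaluronan and proteoglycan genes and 7 of the 21 fibrous and elastic genes were called higher at E13.5, and 1 and 2 were called lower, beside 15.3% higher and 15.1% lower of all probe sets. The largest changes were those of *Aspn* (log2 FC 2.79, limma adjusted p = 5.82e-05), *Lum* (1.22, adjusted p = 0.0424), *Eln*, which encodes elastin (1.39, adjusted p = 0.00523), and *Fbln5*, which encodes a fibulin of elastic fibres (1.21, adjusted p = 0.0110). In mutant hearts these 4 genes rose by log2 FC of 2.30, 1.82, 1.89 and 1.84. There, 7 hyaluronan and proteoglycan genes and 5 fibrous and elastic genes were called higher, and 3 and 1 were called lower. Of all probe sets, 15.3% were called higher and 15.4% lower in mutants. The counts of these lists were not recomputed under other scalings, and the cell types behind them were not tested. Among the ligands and receptors, *Dll4* (0.97), *Hbegf* (0.61), *Bmpr1a* (0.58) and *Eng* (0.58) were called higher in controls, with adjusted p values of 0.00255, 0.0241, 0.000450 and 0.000497, as was the transcription factor *Sox5* (0.61, adjusted p = 0.00242).

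**Figure D5:**
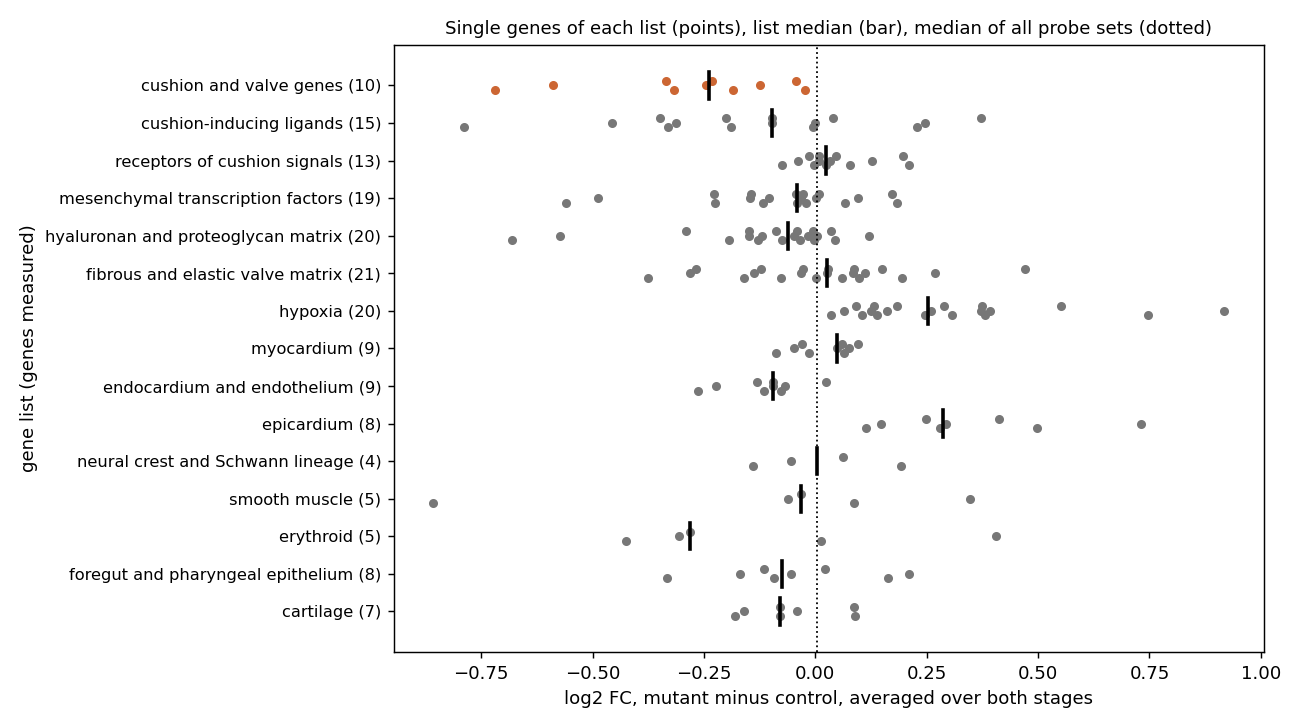
Averaged log2 FC of mutant minus control (horizontal axis) for every measured gene (points) of the cushion and valve genes (orange) and of 14 further lists (grey), with a bar for the median of each list and a dotted line for the median of all probe sets. The cushion and valve genes have a median of −0.24, and the hypoxia and epicardium lists lie to the right with medians of 0.25 and 0.29.

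Markers of other cell types in the heart did not move as one. All 8 epicardial markers had higher means in mutants (median 0.29 over both stages, none called), led by *Aldh1a2* (0.73, limma adjusted p = 0.0701), *Msln* (0.50, adjusted p = 0.533) and *Bnc1* (0.41, adjusted p = 0.630). Their summed level lay between 13.27 and 13.71 in mutant and between 13.11 and 13.41 in control hearts at E11.5, and between 13.12 and 14.11 and between 13.01 and 13.26 at E13.5, with overlap at both stages. All 20 genes of the hypoxia response had higher means in mutants (median 0.25, none called), led by *Adm* (0.92, adjusted p = 0.136). At an unadjusted limma p under 0.05, 8 of them were higher, beside 4.02% of all probe sets. Their summed level at E11.5 was 15.26, 15.23, 15.20 and 15.82 in mutant replicates 1 to 4, against 15.08 to 15.24 in controls. The highest, replicate 4, is a heart named above as standing apart. At E13.5 the sum lay between 15.40 and 15.72 in mutants and between 15.33 and 15.57 in controls. The genotypes thus overlapped at both stages. The 9 myocardial markers had a median of 0.05. Of 5 smooth muscle and pericyte markers *Rgs5* was called lower at E11.5 (−2.04, adjusted p = 0.0340) and at −0.86 (adjusted p = 0.325) on average. The 5 erythroid, 4 neural crest, 8 foregut and 7 cartilage markers had medians of −0.28, 0.00, −0.07 and −0.08, with none called. The part of these cell types in the values of the cushion genes was not tested.

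The genes that varied most like *Hapln1* and *Postn*, the pair with the smallest p in the averaged comparison, were sought by the correlation of deviations from the group means over the 16 hearts. Among 13813 candidate genes, *Hapln1* was most like *Arid3b* (r = 0.91), *P3h2* (r = 0.90) and *Igf2bp1* (r = 0.89), and *Postn* was most like *Amigo2* (r = 0.91), *Ethe1* (r = 0.87) and *Tmprss4* (r = 0.87). These r are given as a description, since they were picked as the highest of many. None of the 6 genes was called between genotypes, and their averaged log2 FC ranged from −0.25 for *P3h2* to 0.33 for *Tmprss4*.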

How the data were processed

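Whole hearts were dissected singly, and RNA was extracted with the RNeasy kit, amplified with the Ambion WT kit and hybridised to Affymetrix Mouse Gene 1.0 ST arrays, 16 arrays in 4 groups of 4. RMA in affy was used by the authors, a method that corrects background, normalises the arrays run together and summarises the probes. The deposited distributions were not alike over the 16 arrays, with SDs of 2.18 to 2.26 at E11.5 and 2.38 to 2.42 at E13.5. The deposited values are log2 intensities between 2.74 and 14.56. Versions are not given in the sources used here, nor whether both stages were normalised in 1 run. Nothing says that the hearts came from separate litters, so p values measure the spread between these hearts.

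Probe sets were named through the platform annotation. Of 34760 probe sets, 21640 named 1 gene, 1321 several and 11799 none, and 21553 symbols were matched by Entrez ID to RefSeq (GRCm38.p6). A gene's value is that of its brightest probe set that names it alone. The deposited values were fitted unchanged in limma 3.58.1 under R 4.3.3 (lmFit, contrasts.fit, eBayes), with a mean for each group and 12 residual degrees of freedom, a fit that was also tested on simulated data. The number of arrays limits the precision. Permutation tests of correlations used 100000 resamples of hearts within groups. Plots were made in Python 3.11.15 and matplotlib 3.10.9.

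The genes, the 14 other lists (167 genes, 160 analysed) and the tests were chosen with earlier results of these data known. The other listed genes were not analysed here. Beside the 10 genes, the text names the genes of each list called between genotypes (otherwise up to 3 with the smallest p averaged over the stages), for the stages up to 2 called genes per list with the largest log2 FC in controls, and the 3 genes that varied most like each of 2 members.

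Alternatives were each stage fitted alone, array weights, a robust and trended prior, renormalisation by quantiles or cyclic loess, centring and scaling of arrays, dropping dim probe sets (under the 40th percentile of mean level) or those not naming 1 gene, medians over a gene's probe sets, the replicate number as a block, a covariate of Y-linked genes, no fold threshold, and hearts left out. Same-numbered mutant and control hearts did not deviate together (r from −0.06 to 0.01 in 7 pairs, and from −0.19 to 0.20 in 25 pairs of other numbers). So few pairs cannot show that the numbers have no meaning such as a shared litter or day. No arrays were identical.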

Additional observations from a re-analysis of the deposited data

Results flagged for a closer look

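*Msx1* in control E11.5 replicate 4 was at 7.79 on the log2 scale, while the other 3 hearts of the group were at 7.86 to 7.87. The gap was 0.835 of the range of the group, which is unusual for 4 samples, but the distance itself is small. It was 1 of 40 groups of hearts tested over the 10 genes, and chance marks about 1 in 20 such groups. The probe set lay between 7.41 and 7.87 in the 16 hearts, where all values of the arrays ran from 2.74 to 14.56, and no cause was tested.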

How the results depend on the processing

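Over all alternatives, 1657 of 1700 recomputed values of single genes had the direction given above. Many of these values could not turn, so the total is no measure of stability. With 1 probe set per gene, dropping other probe sets, taking medians or changing the prior left each log2 FC as it was. Omitting a heart of a group outside the comparison did the same. None of the 10 genes was called between genotypes at E11.5 or at E13.5 alone, or in the difference between the stages, under any setting. The adjusted call of *Hapln1* averaged over the stages was 1 gene in the deposited values and 0 genes with array weights, with the replicate number as a block, with the Y-linked covariate, with 3 hearts left out, and without any 1 of 12 hearts (range 0 to 1). The replicate block is given as an alternative, since same-numbered hearts did not deviate together, which cannot show that the numbers are without meaning. It left *Hapln1* at −0.73 (adjusted p = 0.114) and moved the count called lower between the stages in controls from 2 to 0, while for E11.5, E13.5 and the mutant stage comparison it changed no count. With that block *Msx2* averaged 0.0056 and the stage difference of the genotype effect of *Vcan* was 0.049.

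Percentages in this paragraph are the shares of all probe sets, given where they were computed. Genes lower in mutants without overlap at E11.5 numbered 7 after centring and with 3 hearts left out, and 4 to 7 when any 1 heart was left out. The shares of all probe sets under these settings were not computed. Genes called lower in the control stage comparison numbered 6 after quantile (12.1%), cyclic loess (12.2%) or SD scaling (12.3%). They numbered 1 with array weights or centring (13.3% after centring), 0 with the block, 5 with no fold threshold, and 0 to 3 without any 1 heart. Those called higher numbered 0 after quantile (12.3%), cyclic loess (12.1%) or SD scaling (13%), 2 with no fold threshold or with 3 hearts left out, and 1 to 2 without any 1 heart. Without overlap, 7 (quantile, 17%, loess, 17.1%, and 3 hearts left out) or 6 (SD scaling, 16.3%) were lower, and 2 to 7 without any 1 heart. After quantile, loess and SD scaling 1 was higher (18.2%, 18.1% and 19.1%). In mutants 4 (quantile, 12.2%, and loess, 12.3%) or 2 (SD scaling, 12.2%, and no fold threshold) were called lower, and 1 to 2 without any 1 heart. After SD scaling 0 were called higher (13.3%). In mutants the genes without overlap numbered 4 (loess, 15.3%, and SD scaling, 14.3%) or 0 (centring, 13.4%) lower and 0 higher after SD scaling (16.7%). Control E11.5 replicate 4 and control E13.5 replicate 1 moved the control count without overlap to 6 and 7. Centring moved the share of stage calls that were lower from 49.7% to 43.5% in controls and from 50.1% to 42.7% in mutants.

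Turned directions concerned values near 0. *Scx* at E11.5 was −0.046 with the Y-linked covariate, and *Snai2* in mutants between the stages was 0.035 after centring. In the difference between stages, *Vcan* was 0.043, *Hapln1* 0.078 and *Msx1* 0.083 with 3 hearts left out, and *Hapln1* 0.010 after SD scaling. Without any 1 heart the same difference ran from −0.19 to 0.11 for *Hapln1*, −0.0084 to 0.32 for *Has2*, −0.093 to 0.014 for *Msx1*, −0.0058 to 0.18 for *Postn*, −0.058 to 0.18 for *Twist1* and −0.18 to 0.11 for *Vcan*. The averaged difference then ran from −0.077 to 0.0076 for *Msx2* and −0.066 to 0.028 for *Scx*, and single differences from −0.032 to 0.16 for *Scx* and −0.26 to 0.041 for *Vcan* at E11.5, −0.14 to 0.067 for *Snai2* and −0.25 to 0.0034 for *Vcan* at E13.5, and −0.12 to 0.095 for *Snai2* between the stages in mutants. The causes were not tested. The number of arrays limits the precision of every value.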

Other observations

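Several marker genes of other tissues changed between E11.5 and E13.5 in the deposited values, with limma adjusted p values over all probe sets, of which 30.4% were called in control hearts and 30.7% in mutant hearts. In control hearts the epicardial genes *Msln*, which encodes mesothelin, and *Tbx18*, a transcription factor of the epicardium, had log2 FC of 1.89 (adjusted p = 9.1e-05) and 1.10 (adjusted p = 0.000130), and in mutant hearts 2.05 and 0.90. The epicardial markers did not rise as a list. Of the 8, 4 had lower means at E13.5 in each genotype, with medians of −0.003 in controls and 0.02 in mutants. *Klf1*, the erythroid transcription factor, and *Hbb-bh1*, an embryonic globin, were lower at E13.5 by log2 FC of −1.90 (adjusted p = 0.000225) and −1.34 (adjusted p = 0.00316) in controls, and of −1.31 (adjusted p = 0.00351) and −0.46 (adjusted p = 0.245) in mutants. *Nppa*, the atrial natriuretic peptide, was at 0.61 (adjusted p = 0.000442) and 0.45 (adjusted p = 0.00412), and the endothelial gene *Plvap* at 0.54 (adjusted p = 0.00419) and 0.40 (adjusted p = 0.0247).

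Of genes that cartilage shares with the maturing valve, *Acan*, which encodes aggrecan, was higher at E13.5 in controls (0.68, adjusted p = 0.0233) and at 0.28 (adjusted p = 0.327) in mutants, and *Col2a1* was lower in both genotypes (−0.56, adjusted p = 0.00241, and −0.67, adjusted p = 0.000665). Of the hypoxia genes, *Higd1a* was at 0.86 (adjusted p = 6.19e-05) in controls and 0.59 (adjusted p = 0.00123) in mutants, and *Car9* at 0.80 (adjusted p = 0.00456) and 0.18 (adjusted p = 0.487). The neural crest gene *Erbb3* was at −0.58 (adjusted p = 0.00658) and −0.23 (adjusted p = 0.245). Differences between the genotypes in these changes were not called for any probe set, and the values were not recomputed under other scalings.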
